A study of Caenorhabditis elegans with 9 samples.

Results

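Cyclins are the regulatory partners of cyclin-dependent kinases (CDKs), and their assembly and destruction move a cell through its division cycle. In *C. elegans*, cyclin D (CYD-1) with CDK-4 promotes progression through G1, cyclin E (CYE-1) acts at entry into S phase, and the B-type cyclins with CDK-1 drive mitosis, while the CDK inhibitor CKI-1 holds cells in G1. A newly hatched larva that has not fed keeps its blast cells arrested, and *cki-1* is known to be needed for that arrest.

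The 10 genes described here are the cyclin genes *cya-1*, *cyb-1*, *cyb-2.1*, *cyb-2.2*, *cyb-3*, *cyd-1* and *cye-1*, the kinase genes *cdk-1* and *cdk-4*, and the inhibitor gene *cki-1*. They were taken by name from the array annotation and make up 10 of 17138 genes that a probe set names alone. Of 22548 probe sets, 18 name one of them, 17 alone and 1 shared. The shared one lists *cdk-4* under a further gene record. In 7 of the genes several probe sets measure the transcript and in 3 (*cyb-2.1*, *cye-1*, *cdk-1*) only 1 does. A suffix in the probe set name marks probes that can match further transcripts, x_at on 4 probe sets and s_at on 7. The probe sets for the close paralogues *cyb-2.1* and *cyb-2.2* are all of the x_at kind, so their signals cannot be fully assigned to one or the other. Where a gene had several, the one with the strongest mean log2 signal that names no other gene stood for it, and the others are given beside it.

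RNA of whole L1 larvae was hybridised to 9 Affymetrix arrays, 3 for each of 3 RNA interference (RNAi) groups. The groups were *let-418(RNAi)*, *mep-1(RNAi)* and the control *gfp(RNAi)*, each with replicates 1 to 3 that carry the batch numbers 1 to 3. All were progeny of wild-type N2 Bristol animals that had been placed at the L4 stage on HT115 bacteria making double-stranded RNA of *let-418*, *mep-1* or *gfp* at 25 °C. The eggs hatched without food, and the L1 larvae were then given the same bacteria for 3 h, so all groups share the food-free hatching and the short feeding. The groups differ in development, since the paper reports that loss of *let-418* or *mep-1* arrests larvae at the L1 stage. It chose such arrested larvae for the arrays. The part of that arrest in the values below was not tested. LET-418 is a Mi-2 chromatin remodelling ATPase and MEP-1 a zinc finger protein that binds it. The comparison asks which transcripts depend on either protein. RNAi by feeding lowers a transcript to an extent that can differ between animals and tissues, and every array pools many larvae. Because whole larvae were used, fewer cells of a type and less RNA per cell cannot be told apart in any value below.

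Signals are MAS5 intensities scaled to a common trimmed mean per array. A difference passed at an adjusted p under 0.05 in limma over all probe sets. After scaling the array medians were 94.5 to 98.7 on *gfp(RNAi)* arrays and 105.4 to 111.9 on *let-418(RNAi)* and *mep-1(RNAi)* arrays. The scaled controls were thus lower at the median. Arrays of the same group correlated at r of 0.949 to 0.962 (9 pairs), arrays of different groups at 0.903 to 0.961 (27 pairs). The targeted transcripts were not lower. Signal for *let-418* averaged 1819 ± 439 on arrays labelled *let-418(RNAi)* and 932.9 ± 101 on the *gfp(RNAi)* arrays (SD, n = 3 each), a log2 fold change of 0.94 (adjusted p = 0.0043). Signal for *mep-1* averaged 1597 ± 58.7 on the arrays labelled *mep-1(RNAi)* and 1527 ± 80.6 on the *gfp(RNAi)* arrays (log2 fold change 0.07, adjusted p = 0.78). Where the probes lie relative to the double-stranded RNA was not stated, so these values do not check the labels, and the groups are called by them. The summed signal of 5 yolk genes, an adult marker, lay between 129 and 206.9 on all 9 arrays. Of 5 hypodermis and seam markers 0 passed with limma in either comparison with *gfp(RNAi)* (1 and 0 at an unadjusted p under 0.05). Some other somatic markers moved with the groups. Of 5 neuron markers 1 passed in each comparison with *gfp(RNAi)*, *rab-3*, which fell (log2 fold changes -0.88 and -1.12, adjusted p = 0.018 and 0.0042). *unc-119* had positive differences (0.58 and 0.53, adjusted p = 0.065 and 0.081) and the other 4 had negative ones. The summed signal of the 5 neuron markers was 4680 to 6430 on *let-418(RNAi)* arrays, 4125 to 5853 on *mep-1(RNAi)* arrays and 6615 to 7506 on *gfp(RNAi)* arrays. Of 4 intestine markers *elt-2* rose (1.25 and 1.39) and *ges-1* fell (-0.67 and -0.82), and of 5 body wall muscle markers *myo-3* fell on *mep-1(RNAi)* arrays (-0.57, adjusted p = 0.049). Germline markers set the groups apart: the summed signal of 16 genes was 9546 to 11960 on *let-418(RNAi)* arrays, 12850 to 14490 on *mep-1(RNAi)* arrays and 1469 to 1632 on *gfp(RNAi)* arrays. In each comparison with *gfp(RNAi)* 13 of the 16 rose. Among them were *prg-1* (log2 fold changes 3.63 and 3.89) and *glh-1* (3.25 and 3.57), the genes of a Piwi protein and of a P granule helicase. Oocyte and early embryo markers separated the groups as well. The summed signal of 16 such genes was 2335 to 2583 on *let-418(RNAi)* arrays, 2789 to 3022 on *mep-1(RNAi)* arrays and 1069 to 1198 on *gfp(RNAi)* arrays, and 6 and 8 of them rose while 0 fell. The part of these marker shifts in the values of the cell cycle genes was not tested.

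On the arrays labelled *let-418(RNAi)*, 4 of the 10 genes passed against *gfp(RNAi)*: *cyb-2.2* rose, and *cyb-3*, *cyd-1* and *cdk-1* fell. Over all probe sets 15.4% passed in that comparison, 9.67% higher and 5.75% lower. On the arrays labelled *mep-1(RNAi)*, 3 genes passed: *cyb-2.1* and *cyb-2.2* rose and *cyd-1* fell. There 16.9% of all probe sets passed, 10.4% higher and 6.49% lower. Because the signals of *cyb-2.1* and *cyb-2.2* cannot be fully assigned to one or the other, their rises may not be separate results. The changes were small. By limma, 0 of the 10 passed with a change of at least 2-fold on *let-418(RNAi)* arrays, where 9.3% of all probe sets did (6.54% higher and 2.75% lower). On *mep-1(RNAi)* arrays 1 did (*cyb-2.2*, higher), where 10.1% of all probe sets did (6.78% higher and 3.3% lower). At an unadjusted p under 0.05 there were 5 genes in each comparison, beside 27.8% and 29.7% of all probe sets. In 6 of the 10 genes the *let-418(RNAi)* and *gfp(RNAi)* arrays did not overlap, 2 above and 4 below, beside 33.8% of all probe sets (17.9% above and 15.9% below). The *mep-1(RNAi)* arrays were also clear of the controls in 2 genes above and 4 below, beside 33.7% (18.6% above and 15.1% below). The median log2 fold change over the 10 genes was -0.38 and -0.30, against -0.03 and 0.02 over all probe sets. Without the scaling the all-probe-set medians were -0.10 and -0.27, and none of the 10 genes passed in either comparison. The 3 control arrays are shared by the 2 comparisons, so a high or low control value enters each of them.

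**Figure D1:**
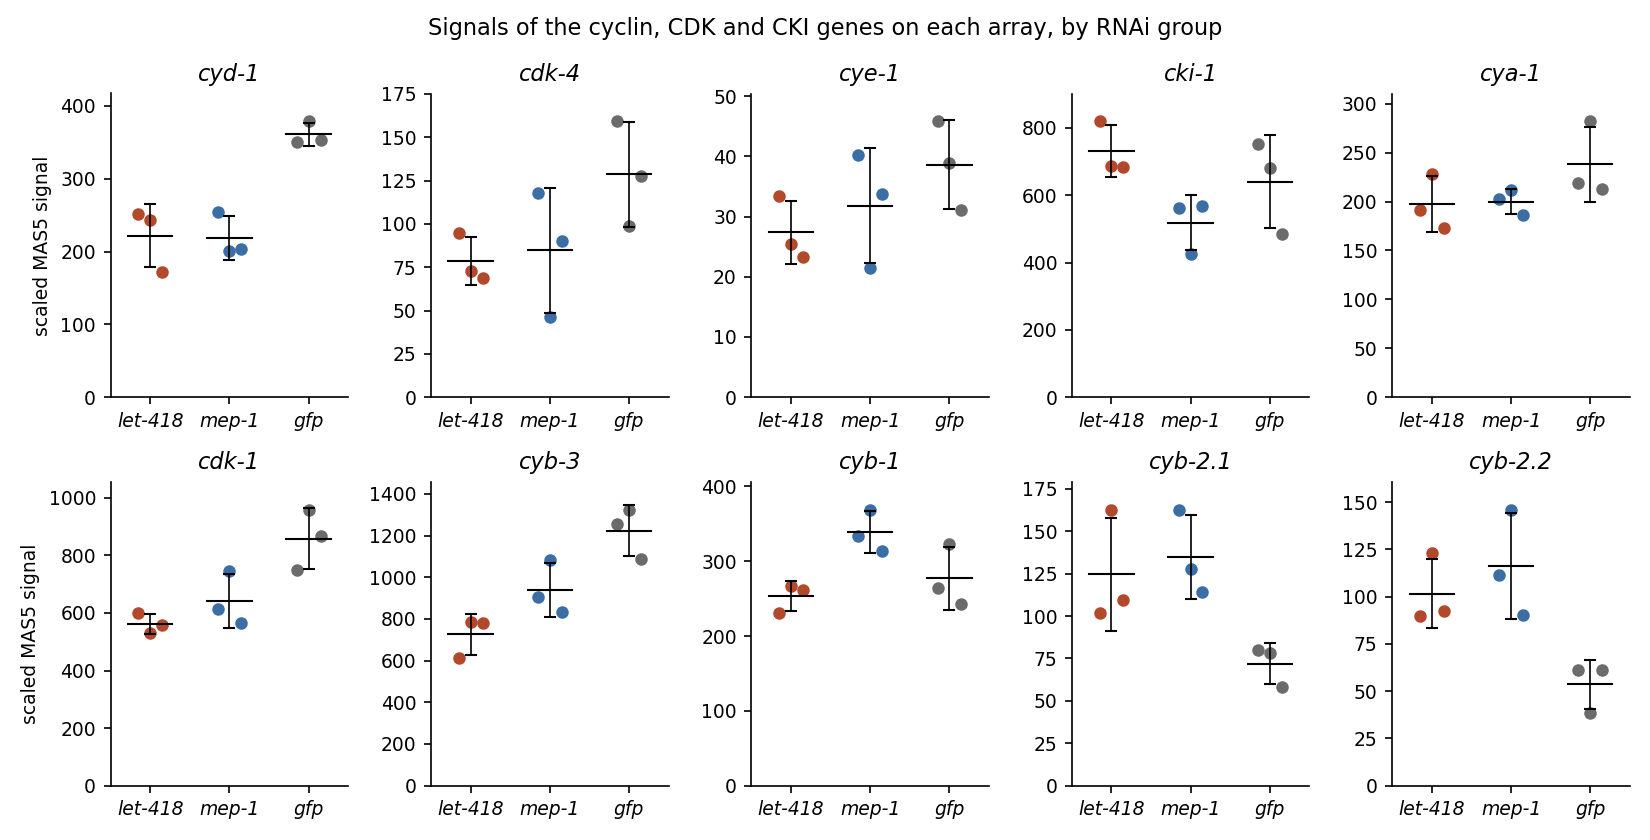
Scaled MAS5 signal (linear, arbitrary units) of the probe set that stands for each of the 10 genes, 1 point per array, with the 3 RNAi groups side by side and bars at the mean with the SD (n = 3). The *let-418(RNAi)* and *mep-1(RNAi)* points lie above all *gfp(RNAi)* points for *cyb-2.1* and *cyb-2.2* and below them for *cyb-3*, *cyd-1* and *cdk-1*.

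The G1 cyclin gene *cyd-1* was lower in both knockdown groups. Its probe set 175670_s_at gave 251.0, 243.3 and 171.7 on the *let-418(RNAi)* arrays, 254.0, 200.5 and 203.2 on the *mep-1(RNAi)* arrays and 350.5, 379.2 and 353.6 on the *gfp(RNAi)* arrays. The 3 control arrays lay close together and above all 6 others. Against *gfp(RNAi)*, the signal was 1.65-fold lower on *let-418(RNAi)* arrays (log2 fold change -0.72, SE 0.18, adjusted p = 0.019) and 1.66-fold lower on *mep-1(RNAi)* arrays (log2 fold change -0.73, SE 0.18, adjusted p = 0.017). The other *cyd-1* probe set, 188351_s_at, also had negative differences but did not pass. It gave 191.1, 198.2 and 259.3 on *let-418(RNAi)* arrays, 209.4, 249.8 and 246.9 on *mep-1(RNAi)* arrays and 254.7, 305.5 and 263.3 on *gfp(RNAi)* arrays. The log2 fold changes were -0.35 with an adjusted p of 0.20 and -0.22 with an adjusted p of 0.44. The intervals of the 2 probe sets overlapped in the *let-418(RNAi)* comparison, -1.12 to -0.33 for the one that passed and -0.73 to 0.02 for the one that did not (95% confidence). The *cyd-1* call also depended on single arrays. Its adjusted p was 0.068 without *let-418(RNAi)* replicate 3 and 0.070 without *gfp(RNAi)* replicate 2, and in the *mep-1(RNAi)* comparison 0.064, 0.053 and 0.065 without *mep-1(RNAi)* replicate 2, *mep-1(RNAi)* replicate 3 and *gfp(RNAi)* replicate 2.

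The kinase gene *cdk-4*, whose product pairs with cyclin D, varied widely within each group and did not pass. Probe set 173429_at gave 94.6, 73.0 and 68.9 on *let-418(RNAi)* arrays, 117.7, 46.1 and 90.1 on *mep-1(RNAi)* arrays and 159.3, 98.5 and 127.9 on *gfp(RNAi)* arrays. The *let-418(RNAi)* values lay below the lowest control and the *mep-1(RNAi)* values overlapped the controls. The log2 fold changes were -0.69 (95% interval -1.43 to 0.04, adjusted p = 0.21) and -0.68 (-1.41 to 0.06, adjusted p = 0.20), differences of a size like those of *cyd-1* with a larger standard error (0.34). The shared *cdk-4* probe set gave 132.4, 139.0 and 133.2 on *let-418(RNAi)* arrays, 124.9, 108.3 and 148.4 on *mep-1(RNAi)* arrays and 185.0, 126.5 and 182.9 on *gfp(RNAi)* arrays. Both knockdown groups overlapped the control there through *gfp(RNAi)* replicate 2 (log2 fold changes -0.27 and -0.36, adjusted p = 0.45 and 0.27).

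Cyclin E signal was low. The single *cye-1* probe set gave 33.4, 25.5 and 23.2 on *let-418(RNAi)* arrays, 40.2, 21.4 and 33.8 on *mep-1(RNAi)* arrays and 45.9, 38.9 and 31.2 on *gfp(RNAi)* arrays, while the 25th percentile of all probe sets was 19.4 to 23.8 per array. The groups overlapped, and the log2 fold changes of -0.50 (95% interval -1.26 to 0.27, adjusted p = 0.40) and -0.31 (-1.08 to 0.45, adjusted p = 0.62) leave room for a change of more than 2-fold downward.

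Cyclin A is known in animals to act in S phase and G2. The 2 *cya-1* probe sets differed. The one that stands for the gene, 189425_s_at, gave 191.6, 228.5 and 172.8 on *let-418(RNAi)* arrays, 202.6, 211.6 and 185.8 on *mep-1(RNAi)* arrays and 218.6, 282.2 and 213.2 on *gfp(RNAi)* arrays. Neither comparison passed (log2 fold changes -0.27 and -0.24, adjusted p 0.37 and 0.41), although the *mep-1(RNAi)* values all lay below the controls. Probe set 173416_at gave 157.3, 188.2 and 138.9 on *let-418(RNAi)* arrays, 155.1, 101.3 and 127.1 on *mep-1(RNAi)* arrays and 263.6, 258.0 and 237.1 on *gfp(RNAi)* arrays. With this probe set the control arrays lay above all others. It fell by 0.66 on the log2 scale on *let-418(RNAi)* arrays (SE 0.20, adjusted p = 0.044, and 0.055 with the batch as a block) and by 1.00 on *mep-1(RNAi)* arrays (SE 0.20, adjusted p = 0.0045), a 2.01-fold lower signal. Of the 18 probe sets, it had the largest fall in the *mep-1(RNAi)* comparison.

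**Figure D2:**
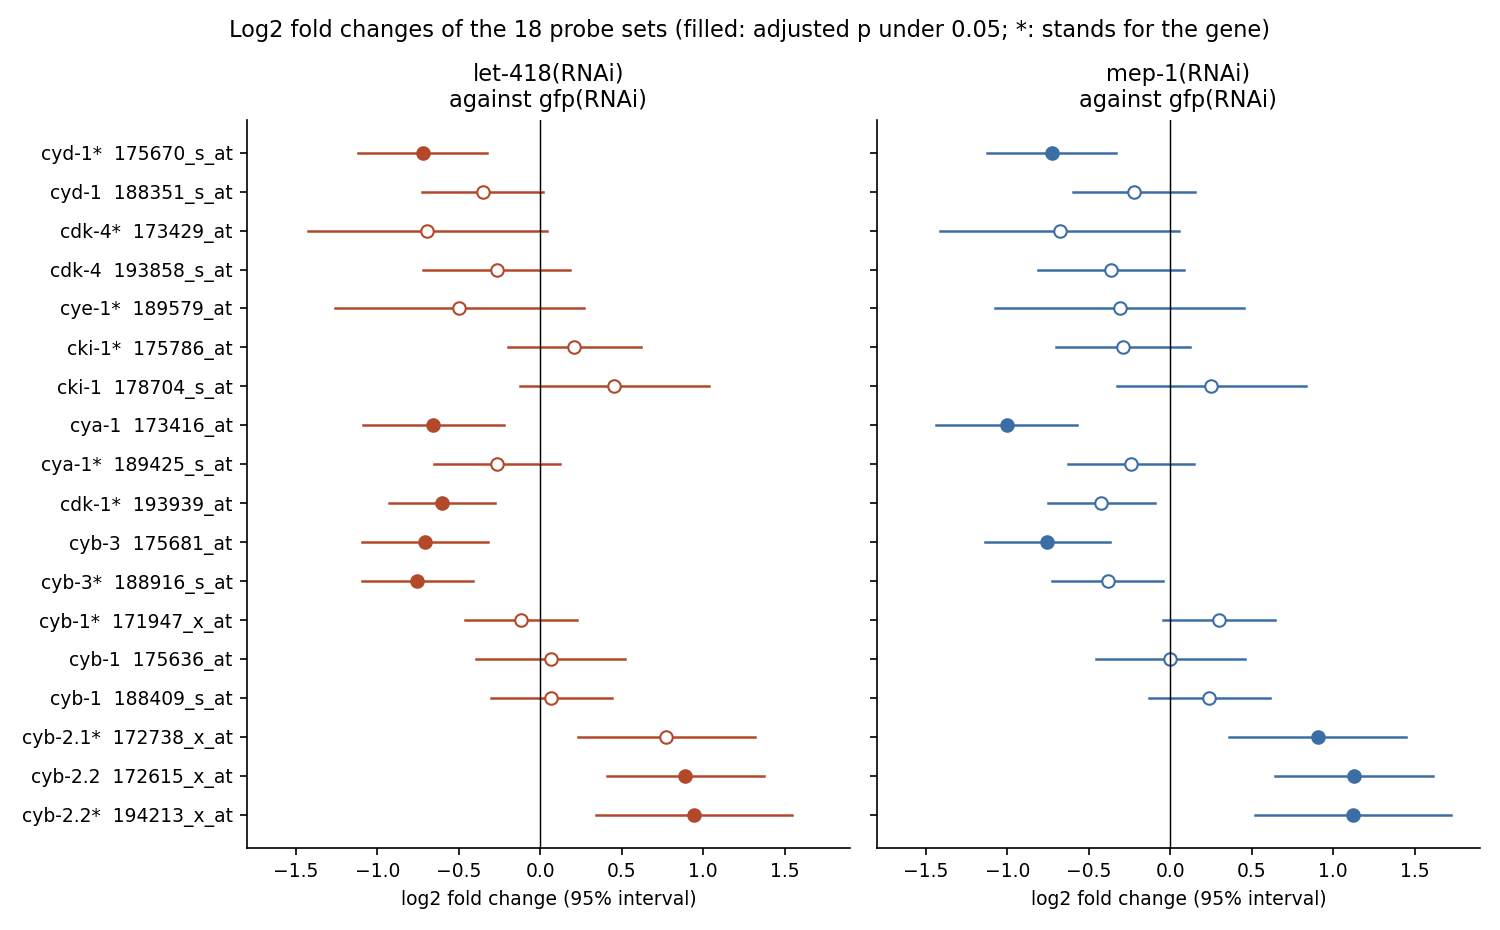
Log2 fold change against *gfp(RNAi)* of all 18 probe sets with its 95% interval, drawn for each knockdown group; filled points had an adjusted p under 0.05 and an asterisk marks the probe set that stands for the gene. The 3 probe sets of *cyb-2.1* and *cyb-2.2* lie furthest right and those of *cyb-3*, *cyd-1* and *cdk-1* lie left of 0, while *cya-1* and *cyd-1* each have 1 probe set that passed and 1 that did not.

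The mitotic kinase gene *cdk-1* fell on the *let-418(RNAi)* arrays. Its single probe set gave 598.3, 530.3 and 558.8 on *let-418(RNAi)* arrays, 613.5, 746.5 and 564.9 on *mep-1(RNAi)* arrays and 749.9, 959.1 and 866.6 on *gfp(RNAi)* arrays. No array of either knockdown group reached the lowest control, *gfp(RNAi)* replicate 1. The signal was 1.52-fold lower on *let-418(RNAi)* arrays (log2 fold change -0.61, SE 0.15, adjusted p = 0.017), with an adjusted p of 0.067 without *let-418(RNAi)* replicate 2 and 0.080 without *gfp(RNAi)* replicate 2. On *mep-1(RNAi)* arrays the log2 fold change was -0.42 (SE 0.15, adjusted p = 0.077) and did not pass. The direct difference between the knockdown groups was not past the threshold either, so a different response of *cdk-1* was not shown.

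The B-type cyclins, partners of CDK-1, did not move together. *cyb-3*, whose product has mitotic roles of its own beside those of CYB-1, had the lowest adjusted p of the 10 genes in the *let-418(RNAi)* comparison. Probe set 188916_s_at gave 612.3, 786.0 and 782.5 on *let-418(RNAi)* arrays, 905.0, 1084 and 832.4 on *mep-1(RNAi)* arrays and 1257, 1325 and 1087 on *gfp(RNAi)* arrays. The 3 groups did not overlap, with *let-418(RNAi)* lowest and *mep-1(RNAi)* between it and the control. On *let-418(RNAi)* arrays the signal was 1.69-fold lower than on *gfp(RNAi)* arrays (log2 fold change -0.76, SE 0.16, adjusted p = 0.0063), and it passed with each of the 9 arrays left out in turn (adjusted p = 0.0067 to 0.034). On *mep-1(RNAi)* arrays the log2 fold change was -0.38 (SE 0.16, adjusted p = 0.12). The other *cyb-3* probe set, 175681_at, fell in both comparisons. Its signals were 787.6, 905.6 and 680.1 on *let-418(RNAi)* arrays, 973.4, 688.5 and 656.0 on *mep-1(RNAi)* arrays and 1423, 1262 and 1177 on *gfp(RNAi)* arrays, and both knockdown groups lay below the control. Its log2 fold changes were -0.71 (SE 0.18, adjusted p = 0.018) and -0.76 (SE 0.18, adjusted p = 0.012), so that the *mep-1(RNAi)* result for *cyb-3* depends on the probe set.

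*cyb-1*, a mitotic B-type cyclin gene, did not pass with any of its 3 probe sets. Probe set 171947_x_at gave 231.3, 267.4 and 262.0 on *let-418(RNAi)* arrays, 333.8, 369.0 and 314.2 on *mep-1(RNAi)* arrays and 264.4, 323.3 and 243.1 on *gfp(RNAi)* arrays. The *mep-1(RNAi)* values were the highest group but overlapped the control through *gfp(RNAi)* replicate 2. The log2 fold changes were -0.12 (95% interval -0.46 to 0.22, adjusted p = 0.69) and 0.30 (-0.04 to 0.64, adjusted p = 0.23). The other probe sets, 175636_at and 188409_s_at, had log2 fold changes of 0.06 and 0.07 on *let-418(RNAi)* arrays and of 0.00 and 0.24 on *mep-1(RNAi)* arrays, with adjusted p of 0.40 to 1.0.

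*cyb-2.1* and *cyb-2.2* encode closely related B-type cyclins, and they had positive differences in both comparisons. Probe set 172738_x_at for *cyb-2.1* gave 101.8, 162.8 and 109.4 on *let-418(RNAi)* arrays, 162.4, 127.9 and 114.4 on *mep-1(RNAi)* arrays and 79.8, 78.1 and 58.1 on *gfp(RNAi)* arrays. Every knockdown array lay above the highest control. It was 1.87-fold higher on *mep-1(RNAi)* arrays (log2 fold change 0.91, SE 0.25, adjusted p = 0.027). On *let-418(RNAi)* arrays its log2 fold change of 0.78 (95% interval 0.23 to 1.32) narrowly missed, with an adjusted p of 0.057. The *mep-1(RNAi)* call was lost without *mep-1(RNAi)* replicate 1 (adjusted p = 0.096), *mep-1(RNAi)* replicate 2 (0.066), *gfp(RNAi)* replicate 2 (0.054) or *gfp(RNAi)* replicate 3 (0.083).

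For *cyb-2.2*, probe set 194213_x_at gave 89.8, 123.0 and 92.4 on *let-418(RNAi)* arrays, 111.6, 146.1 and 90.5 on *mep-1(RNAi)* arrays and 61.2, 38.4 and 61.2 on *gfp(RNAi)* arrays. The lowest control was *gfp(RNAi)* replicate 2, and the highest array of each knockdown group was also replicate 2. Against *gfp(RNAi)* the signal was 1.92-fold higher on *let-418(RNAi)* arrays (log2 fold change 0.94, SE 0.27, adjusted p = 0.038) and 2.17-fold higher on *mep-1(RNAi)* arrays (log2 fold change 1.12, SE 0.27, adjusted p = 0.016). A fit blocked on batch gave the *let-418(RNAi)* comparison an adjusted p of 0.060. That call was also lost without *let-418(RNAi)* replicate 1 (0.068), replicate 2 (0.14) or replicate 3 (0.072), without *mep-1(RNAi)* replicate 1 (0.054) and without *gfp(RNAi)* replicate 2 (0.14). The *mep-1(RNAi)* call was lost without *mep-1(RNAi)* replicate 2 (0.071) or *gfp(RNAi)* replicate 2 (0.063). The second *cyb-2.2* probe set, 172615_x_at, varied less. It gave 90.7, 94.6 and 79.7 on *let-418(RNAi)* arrays, 96.6, 123.5 and 93.2 on *mep-1(RNAi)* arrays and 50.9, 49.4 and 42.6 on *gfp(RNAi)* arrays, again with no overlap. It rose 1.86-fold (adjusted p = 0.018) and 2.18-fold (adjusted p = 0.0044) and passed with the batch as a block too (0.021 and 0.0065). The groups in which these paralogues were higher were also those with high germline, oocyte and early embryo marker signal. Any gene higher in both knockdown groups shares this, and a link was not tested.

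The inhibitor gene *cki-1*, a Cip/Kip family member, did not pass against *gfp(RNAi)* with either probe set. Probe set 175786_at gave 820.2, 687.3 and 684.4 on *let-418(RNAi)* arrays, 561.8, 424.6 and 569.0 on *mep-1(RNAi)* arrays and 753.2, 680.7 and 486.1 on *gfp(RNAi)* arrays. The controls overlapped both other groups, with *gfp(RNAi)* replicate 3 lowest among them. The log2 fold changes were 0.21 (95% interval -0.20 to 0.62, adjusted p = 0.52) on *let-418(RNAi)* arrays and -0.29 (-0.70 to 0.12, adjusted p = 0.34) on *mep-1(RNAi)* arrays. Probe set 178704_s_at gave 356.4, 278.0 and 445.6 on *let-418(RNAi)* arrays, 308.1, 301.4 and 311.6 on *mep-1(RNAi)* arrays and 381.1, 266.1 and 169.3 on *gfp(RNAi)* arrays, and again the controls overlapped both groups. Its log2 fold changes were 0.45 and 0.25 (adjusted p = 0.30 and 0.59), so the 2 probe sets differed in sign in the *mep-1(RNAi)* comparison. *cki-2*, the paralogue that neighbours *cki-1* in the genome annotation, did not pass either (log2 fold changes 0.47 and 0.08, adjusted p = 0.12 and 0.84). Of 7 dauer and starvation response genes 1 rose and 2 fell in each comparison, with list medians of -0.09 and -0.50. *daf-16*, the FOXO factor known to act upstream of *cki-1* in the arrested larva, rose by 0.60 on *let-418(RNAi)* arrays (log2 scale, adjusted p = 0.031) and by 0.57 on *mep-1(RNAi)* arrays (adjusted p = 0.035). *dod-3* (-4.20 and -4.63, adjusted p = 2e-05 and 8e-06) and *lbp-8* (-3.60 and -4.84, adjusted p = 0.021 and 0.0038) fell. The *lbp-8* signals were very low, 0.46 to 3.19 on *let-418(RNAi)* arrays, 0.18 to 0.99 on *mep-1(RNAi)* arrays and 10.9 to 16.8 on *gfp(RNAi)* arrays. All lay below the 25th percentile of all probe sets (19.4 to 23.8 per array), so the size of that fall is uncertain (SE 0.925).

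Each batch number is shared by 1 array of every group, so each difference was also read between arrays of the same number, for the probe set that stands for the gene. The methods do not state that arrays of the same number were handled together. On *let-418(RNAi)* arrays 9 of the 10 genes kept 1 sign against *gfp(RNAi)* in all 3 batches, beside 49.1% of all probe sets, and the exception was *cyb-1*. On *mep-1(RNAi)* arrays 8 of 10 did, beside 50.7%, and the exceptions were *cye-1* and *cki-1*. Between the knockdown groups 4 of 10 did, beside 27.9%. For *cyb-2.2* the batches were uneven. Its log2 differences were 0.56, 1.68 and 0.59 in batches 1, 2 and 3 on *let-418(RNAi)* arrays and 0.87, 1.93 and 0.56 on *mep-1(RNAi)* arrays, so batch 2 gave the largest difference in both. For *cyb-3* they were -1.04, -0.75 and -0.48 on *let-418(RNAi)* arrays and -0.47, -0.29 and -0.39 on *mep-1(RNAi)* arrays, and in every batch the *let-418(RNAi)* array was the lower. The other *cyb-3* probe set, 175681_at, did not keep that order. There the *mep-1(RNAi)* array differed from the *let-418(RNAi)* array by 0.305, -0.395 and -0.052 in batches 1, 2 and 3. For *cyd-1* the differences from *gfp(RNAi)* were -0.48, -0.64 and -1.04 on *let-418(RNAi)* arrays and -0.47, -0.92 and -0.80 on *mep-1(RNAi)* arrays. The batch with the largest fall differed between the knockdown groups.

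**Figure D3:**
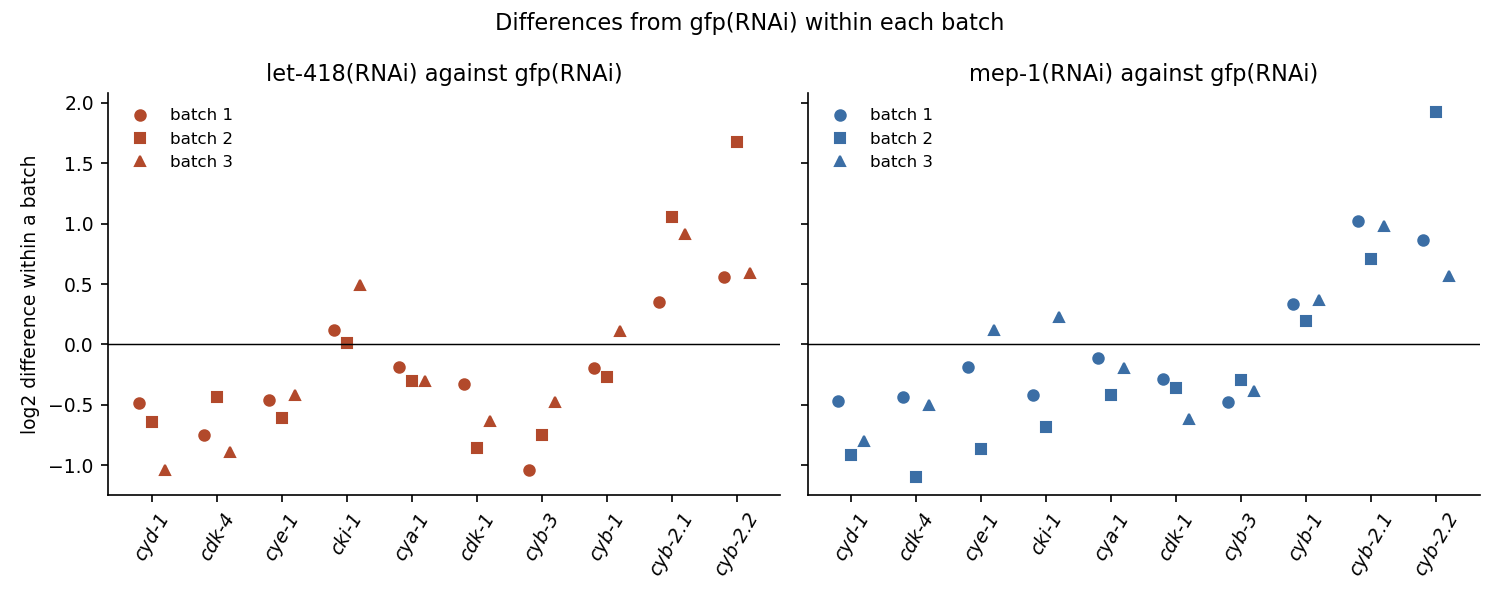
Log2 difference from the *gfp(RNAi)* array of the same batch number for each of the 10 genes, with 1 point per batch number and knockdown group. All 6 points lie above 0 for *cyb-2.1* and *cyb-2.2* and all 6 lie below 0 for *cya-1*, *cyb-3*, *cyd-1*, *cdk-1* and *cdk-4*, and batch 2 lies apart for *cyb-2.2*.

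Set directly against each other, *mep-1(RNAi)* and *let-418(RNAi)* arrays differed past the threshold in 0 of the 10 genes (limma; 0.00443% of all probe sets passed). At an unadjusted p under 0.05 there were 3, where 5.61% of all probe sets had one, and the methods' t-test found 0. Those 3 genes were also the only ones in which the groups did not overlap, which was so for 11.5% of all probe sets (6.68% above and 4.84% below). *cyb-1* was higher on *mep-1(RNAi)* arrays (log2 difference 0.42, SE 0.16, unadjusted p = 0.021, adjusted p = 0.82). *cyb-3* was higher too (0.37, SE 0.16, unadjusted p = 0.035, adjusted p = 0.85). *cki-1* was lower on *mep-1(RNAi)* arrays (-0.50, SE 0.19, unadjusted p = 0.021, adjusted p = 0.82). For these genes the 95% intervals were 0.08 to 0.76, 0.03 to 0.71 and -0.91 to -0.09, and none holds after adjustment. With the other probe sets of these genes the groups overlapped, and none had an unadjusted p under 0.05. Those gave -0.06 and 0.17 for *cyb-1* (unadjusted p = 0.77 and 0.33 in limma), -0.05 for *cyb-3* (0.79) and -0.20 for *cki-1* (0.46). The 0.17 for *cyb-1* and the -0.20 for *cki-1* kept the sign of the differences above, and the other values did not.

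The other measured genes of the cycle were read from lists by role. Of 18 further cyclin, CDK and inhibitor genes, 0 passed on *let-418(RNAi)* arrays with limma (5 at an unadjusted p under 0.05), while on *mep-1(RNAi)* arrays *cdk-11.1* and *cdk-8* rose and *cdk-12* fell. These kinases are known for roles in transcription rather than in the cycle itself. Their log2 fold changes on *mep-1(RNAi)* arrays were 0.67 (adjusted p = 0.018), 0.72 (0.027) and -0.56 (0.041), and on *let-418(RNAi)* arrays 0.46 (adjusted p = 0.096), 0.50 (0.12) and -0.51 (0.061). With the batch as a block *cdk-11.1* passed there too (adjusted p = 0.041). The 3 calls of 18 stand beside 16.9% of all probe sets, and 0 were left without *mep-1(RNAi)* replicate 2, *mep-1(RNAi)* replicate 3 or *gfp(RNAi)* replicate 1, without the intensity trend, or with unscaled signals. The list medians were 0.03 and 0.05. Of 10 genes of the RB, E2F and DREAM group, which hold back or promote the G1/S step, *dpl-1*, the DP partner of E2F, rose on *mep-1(RNAi)* arrays (0.59, adjusted p = 0.037) and had 0.32 (adjusted p = 0.27) on *let-418(RNAi)* arrays. That 1 call of 10 was lost without any 1 of the *mep-1(RNAi)* arrays, *let-418(RNAi)* replicate 2, *gfp(RNAi)* replicate 1 or *gfp(RNAi)* replicate 2, and with quantile normalization, no intensity trend or unscaled signals. On *let-418(RNAi)* arrays 0 of the 10 passed with limma (2 at an unadjusted p under 0.05).

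Among 7 CDK activating and inhibiting enzymes, *cdc-25.1* rose in both comparisons. It encodes a phosphatase that activates CDKs and is known for its part in germ cell proliferation. Its signals were 193.7, 172.5 and 137.2 on *let-418(RNAi)* arrays, 206.9, 165.8 and 148.8 on *mep-1(RNAi)* arrays and 86.8, 109.0 and 59.9 on *gfp(RNAi)* arrays, with no overlap. The log2 fold changes were 1.01 (adjusted p = 0.018) and 1.06 (adjusted p = 0.013). No gene of this list rose on *let-418(RNAi)* arrays without *let-418(RNAi)* replicate 1, *let-418(RNAi)* replicate 2 or *gfp(RNAi)* replicate 3, on *mep-1(RNAi)* arrays without *mep-1(RNAi)* replicate 1, or in either comparison with unscaled signals. Of 11 SCF and other ligase genes that act on cyclins or CDK inhibitors, 2 rose in each comparison, beside 9.67% and 10.4% of all probe sets. *skr-2*, a Skp1-related gene, rose in both (1.08 and 1.24, adjusted p = 0.0040 and 0.0016), *zyg-11* rose on *let-418(RNAi)* arrays (0.71, adjusted p = 0.016) and *cul-1*, the SCF cullin gene, on *mep-1(RNAi)* arrays (0.49, adjusted p = 0.044). Only 1 rose on *let-418(RNAi)* arrays without *let-418(RNAi)* replicate 1 or 2, and only 1 on *mep-1(RNAi)* arrays without *let-418(RNAi)* replicate 2, *mep-1(RNAi)* replicate 2 or 3, or any 1 of the *gfp(RNAi)* arrays. Without the intensity trend 1 rose in each comparison, with quantile normalization 1 on *mep-1(RNAi)* arrays, and with unscaled signals 0 in both. Of 12 measured genes of the anaphase-promoting complex, the ligase that marks mitotic cyclins for destruction, 4 rose in each comparison and 0 fell, beside the same shares of all probe sets. They were *apc-10* (1.53 and 1.68), *apc-11* (0.80 and 1.02), *apc-2* (0.47 and 0.58) and *mat-1* (0.62 and 0.64), with adjusted p of 0.00054 to 0.044. The medians over the 12 genes were 0.03 and 0.23. On *let-418(RNAi)* arrays the count was 1 without *let-418(RNAi)* replicate 3, without *gfp(RNAi)* replicate 2 or without the intensity trend, and 2 without *let-418(RNAi)* replicate 1, *let-418(RNAi)* replicate 2, *gfp(RNAi)* replicate 1 or *gfp(RNAi)* replicate 3. On *mep-1(RNAi)* arrays it was 2 without *mep-1(RNAi)* replicate 2, and with unscaled signals it was 1 in both comparisons.

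Of 18 mitotic kinase and spindle checkpoint genes, 2 rose and 3 fell on *let-418(RNAi)* arrays, and 2 rose on *mep-1(RNAi)* arrays. Over all probe sets 9.67% rose and 5.75% fell on *let-418(RNAi)* arrays, and 10.4% rose on *mep-1(RNAi)* arrays. The 3 falls became 1 without *let-418(RNAi)* replicate 1, *let-418(RNAi)* replicate 3 or any 1 of the *gfp(RNAi)* arrays, and also without the intensity trend. With unscaled signals 0 fell and 1 rose in each comparison. The 3 falls became 2 without *let-418(RNAi)* replicate 2, *mep-1(RNAi)* replicate 1 or *mep-1(RNAi)* replicate 2. The polo-like kinase genes went different ways. *plk-3* (1.72 and 2.36, adjusted p = 5.8e-05 and 4e-06) and *plk-2* (1.25 and 1.51, adjusted p = 0.0078 and 0.0023) rose in both comparisons. *plk-1*, the main mitotic one, fell by 0.57 on the log2 scale on *let-418(RNAi)* arrays (adjusted p = 0.041, and 0.059 with the batch as a block) and had -0.44 (adjusted p = 0.10) on *mep-1(RNAi)* arrays. *mdf-2*, the Mad2 checkpoint gene, fell by 0.67 on *let-418(RNAi)* arrays (adjusted p = 0.010) and had -0.48 (adjusted p = 0.050, not past the threshold) on *mep-1(RNAi)* arrays.

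The S-phase genes had the most falls of these lists. Of 17 measured, 8 fell on *let-418(RNAi)* arrays and 7 on *mep-1(RNAi)* arrays and 0 rose, beside the 5.75% and 6.49% of all probe sets that passed as lower, and the list medians were -0.56 and -0.61. The replicative helicase gene *mcm-5* (-0.82 and -0.70, adjusted p = 0.00070 and 0.0020) was among them. So were *rnr-1*, for the large ribonucleotide reductase subunit (-0.74 and -0.93, adjusted p = 0.0043 and 0.00088), and *pcn-1*, for the sliding clamp PCNA (-0.76 and -0.64, adjusted p = 0.0013 and 0.0037). *mcm-7* fell as well (-0.92 and -0.90, adjusted p = 0.0025 and 0.0026). The authors' quantitative PCR, however, found *mcm-7* unaffected in both knockdown groups, and they propose that it was a false positive of the *let-418(RNAi)* arrays. The summed signal of the 17 genes was 8226 to 9107 on *let-418(RNAi)* arrays, 8493 to 9595 on *mep-1(RNAi)* arrays and 12720 to 14240 on *gfp(RNAi)* arrays, with no overlap. With unscaled signals 1 and 3 of them fell.

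**Figure D4:**
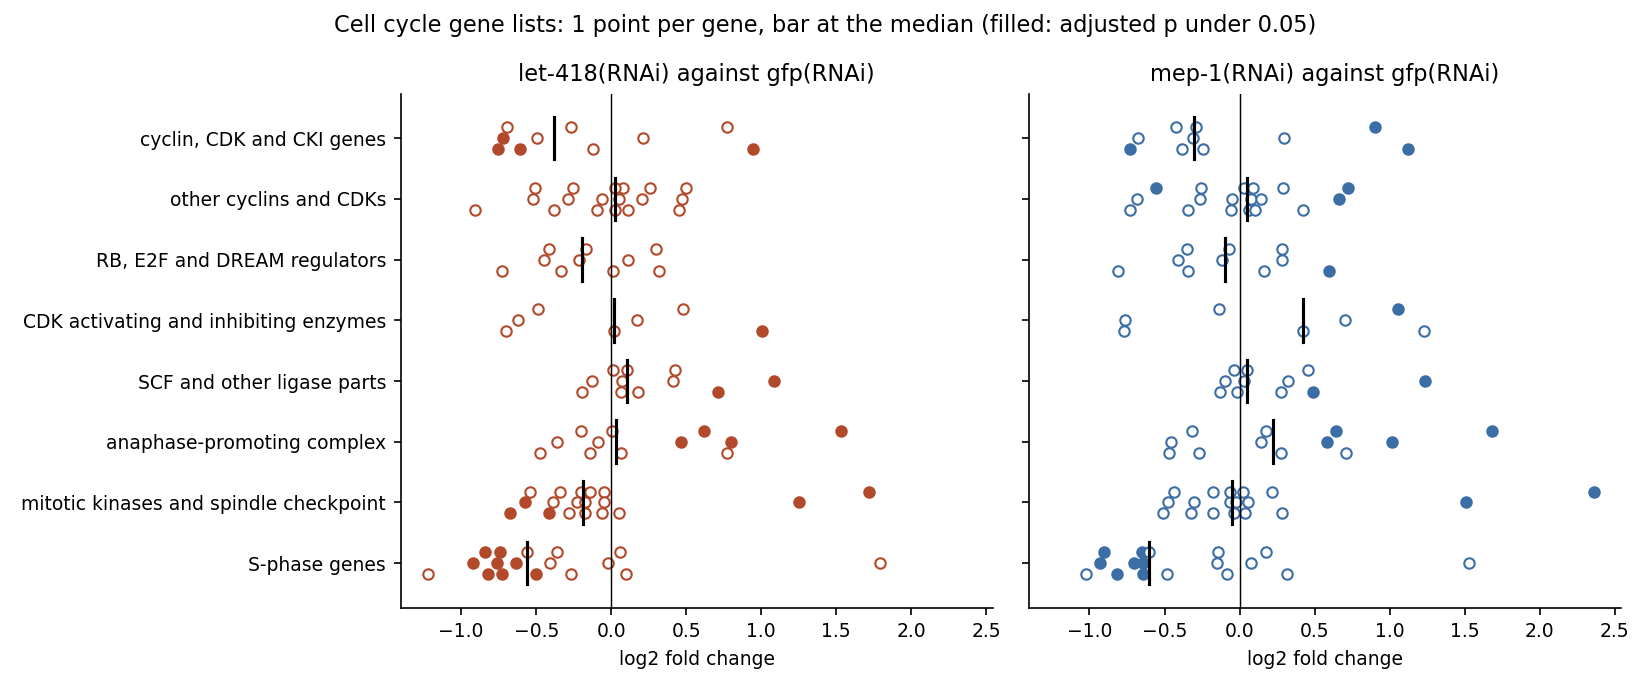
Log2 fold change against *gfp(RNAi)* of each gene, for the 10 cyclin, CDK and inhibitor genes and 7 lists of other cell cycle genes, with *let-418(RNAi)* and *mep-1(RNAi)* shown separately and a bar at each list's median. Most S-phase genes lie below 0 in both comparisons, and *plk-3*, *plk-2*, *apc-10*, *skr-2*, *cdc-25.1* and the S-phase gene *gmn-1*, which did not pass, lie above 1 in both.

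For the 5 genes that passed in either comparison with *gfp(RNAi)*, the genes most like them were sought by the root mean square difference of their log2 signals, each centred on its own mean, over all 9 arrays and about 8380 genes with above-median signal. The closest to *cyd-1* were *top-1* (0.08), which encodes topoisomerase I, *cdgs-1* (0.09) and *nstp-2* (0.10). *cyb-3* was nearest to *ccar-1* (0.12), *dnj-7* (0.12) and *hut-1* (0.12). For *cdk-1* they were *slc-46A* (0.09), *R04A9.3* (0.11) and *ccar-1* (0.11), so that *ccar-1* stood near both. *cyb-2.1* lay closest to *col-68* (0.17), *hacl-1* (0.17) and *unc-49* (0.18), and *cyb-2.2* to *xpf-1* (0.21), *prx-1* (0.21) and *W05F2.6* (0.22). The nearest genes of *cyb-2.1* and *cyb-2.2* were further from them than those of *cyd-1*, *cyb-3* and *cdk-1*. The signal of *cyb-2.2* was itself not above the median, so genes as dim as it were not among the candidates. These distances rest on 9 arrays in 3 groups and are given as a description.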

How the data were processed

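RNA of whole L1 larvae was measured on 9 Affymetrix *C. elegans* arrays, 3 per RNAi group, and per the sources the 3 batches are biological replicates. The authors deposited 1 linear MAS5 intensity per probe set and array, made with AGCC and MAS5 (versions not given in the sources used here). Their methods name a global scaling to an unstated target. Because trimmed means differed between arrays, each was scaled (factors 0.758 to 1.58) to a mean of 330 after trimming 2% at each end, and log2 was taken. All 22548 probe sets were fitted in limma 3.58.1 (R 4.3.3; lmFit, eBayes with trend) with 3 group means over 9 arrays, 2-sided, with Benjamini-Hochberg adjustment over all probe sets. The number of arrays limits the precision. Gene names came from the platform annotation, 17085 of 17138 found in the RefSeq table, which also gave gene neighbours. Python 3.11.15, numpy 2.4.6, pandas 2.3.3 and matplotlib 3.10.9 were used, and the fit was tested on simulated data.

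Each batch number is carried by 1 array of each group, but the methods do not state that arrays of the same number were handled together. Correlations of residuals were -0.03 to 0.10 (9 pairs) for arrays of the same batch number and -0.14 to 0.10 (18 pairs) for others, and batch entered the fit as an alternative. Other alternatives were quantile normalization, unscaled signals, an offset, a filter on low signals, no trend, only the arrays compared, means over probe sets, the methods' t-test and each array left out.

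The genes and lists were chosen with earlier results of these data known. Named from each list of cell cycle genes were up to 4 genes that passed, those with the smallest p. From the germline markers those with the highest signal were named. From the other marker lists the genes named were those that passed, not those with the highest signal, apart from *unc-119*. *cki-2* was named after its values were seen, as the neighbour of *cki-1*. Sequences were not analysed here.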

Additional observations from a re-analysis of the deposited data

How the results depend on the processing

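Main counts of genes passing were 4 on *let-418(RNAi)* arrays and 3 on *mep-1(RNAi)* arrays against *gfp(RNAi)*, and 0 between the knockdown groups. With signals as deposited they were 0 and 0, with the methods' t-test (p of at most 0.01 and 2-fold) 0 and 0, with that t-test after Benjamini-Hochberg adjustment 0 and 0, and with a 2-fold limit added 0 and 1. Without the intensity trend 2 passed on *let-418(RNAi)* arrays. When probe sets of a gene were averaged 5 passed in each comparison with *gfp(RNAi)*, as did 5 when any probe set of the gene counted. When every probe set of the gene had to pass, 3 did on *let-418(RNAi)* arrays and 2 on *mep-1(RNAi)* arrays. The rules on any and on every probe set were chosen after seeing the data. Leaving out 1 array at a time gave 1 to 4 on *let-418(RNAi)* arrays and 0 to 3 on *mep-1(RNAi)* arrays, with the lowest count in both without *gfp(RNAi)* replicate 2. Without *let-418(RNAi)* replicate 2 or 3, 2 passed on *let-418(RNAi)* arrays, and without *mep-1(RNAi)* replicate 2, 1 passed on *mep-1(RNAi)* arrays. With the replicate block (batch) 3 and 3 passed, the lost call being *cyb-2.2* on *let-418(RNAi)* arrays, and the block changed no other call of the 10 genes. Quantile normalization also ended that call (adjusted p = 0.083) and that of *cyb-2.1* on *mep-1(RNAi)* arrays (0.052), and a fit of only the 6 arrays compared ended the *cyb-2.2* call at 0.051. The direct count was 0 under every alternative.

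Against *gfp(RNAi)*, 1 of 360 values changed sign: *cyb-1* on *let-418(RNAi)* arrays, 0.004 (adjusted p = 0.99) as a mean of probe sets. The direct differences, none of which passed, changed sign more often. As deposited they were -0.19 (*cya-1*), -0.084 (*cyb-2.1*), -0.037 (*cyb-2.2*), -0.029 (*cye-1*), -0.033 (*cdk-1*) and -0.20 (*cdk-4*). As means of probe sets they were -0.16 (*cya-1*) and 0.063 (*cyd-1*). Leaving out 1 array gave -0.067 to 0.14 (*cya-1*), -0.012 to 0.34 (*cyb-2.1*), -0.003 to 0.34 (*cyb-2.2*), -0.18 to 0.093 (*cyd-1*), -0.008 to 0.45 (*cye-1*) and -0.28 to 0.40 (*cdk-4*). The causes were not tested. Signals near the array's 25th percentile (*cye-1*) or below it (*lbp-8*) limit what could be detected and how well a fold change is known.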
